A study of Mus musculus with 6 samples.

Results

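The matrix metalloproteinases (MMPs) and their tissue inhibitors (TIMPs) were examined as a family of 10 genes, taken by gene symbol from the 41549 genes of the deposited count table. They were the 7 proteases Mmp8, Mmp9, Mmp12, Mmp13, Mmp14, Mmp19 and Mmp27 and the 3 inhibitors Timp1, Timp2 and Timp3. Each symbol matched exactly 1 row, and all 10 genes passed the low-count filter that left 11933 genes for testing.

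The cells were macrophages (Mφs) grown from the bone marrow of adult wild-type C57BL/6N mice with macrophage colony-stimulating factor. As naïve cells they were transfected with a locked nucleic acid antisense against 5′tRF-Glu(CTC), a small RNA cut from a tRNA for glutamate (αGlu, 3 libraries), or with a control antisense (Ctr, 3 libraries). Both groups received the transfection reagent and were then polarized by IL-4 and IL-13 to anti-inflammatory M2 cells, so that no unpolarized or untransfected cells enter the comparison. The study gives the libraries as independent experiments, and the labels name no batch or date.

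MMPs are zinc-dependent endopeptidases that cleave collagens, elastin, gelatins and other matrix proteins, and also cytokines and receptors at the cell surface. They are made as inactive precursors, activated by removal of a propeptide, and blocked by TIMPs, which sit in the active site. Mφs are a classical source of MMP12, also called macrophage elastase, and of MMP9, and the balance of proteases and inhibitors is commonly considered when Mφs are described as matrix-degrading or matrix-sparing.

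Libraries held 17912831 to 30386653 exon reads. αGlu 1 stood apart from αGlu 2 and αGlu 3. Across the genes tested its log2 read counts scaled by library size (CPM) correlated at a Pearson r of 0.929 with either of them, against 0.992 between those 2 and 0.966 to 0.982 with the Ctr libraries. The Ctr libraries correlated with each other at 0.978 to 0.988. The fits of the 10 genes are therefore given with and without αGlu 1. Those without it rest on 2 αGlu libraries, a choice made from these same data. Defining Mφ markers were present in every library, with Adgre1 at 822 to 1595 CPM, Csf1r at 2400.3 to 3055 CPM and Cd68 at 1144 to 2063 CPM over all 6. The 6 IL-4/IL-13 response markers did not share a direction. Retnla had 5873 to 11877 reads in Ctr, 1766 in αGlu 1 and 1 each in αGlu 2 and 3. Mgl2 had 1587 to 1935 reads in Ctr and 185, 16 and 64 in αGlu 1, 2 and 3. Arg1 had 535 to 1081 reads in Ctr and 409, 59920 and 48847 in αGlu, and Ccl24 had 6 to 14 and 4, 288 and 442. Mrc1 had 771 to 948 CPM in Ctr and 840, 1513 and 2379 CPM in αGlu 1, 2 and 3. The list summed to 2792 to 4496 CPM in Ctr and 4001 to 6938 CPM in αGlu. Chil3 gave 1479 to 2895 CPM of this in Ctr and 2160 to 3529 CPM in αGlu. Mast cell and dendritic cell markers each summed to at most 4.13 CPM in any library. The libraries are bulk RNA, so fewer cells of a type and less RNA per cell cannot be told apart.

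The main comparison asked which family members differ upon blocking of the tRNA fragment. By edgeR's quasi-likelihood test on all 6 libraries, 0 of the 10 genes passed the limits for a call (adjusted p below 0.1, log2 fold change beyond 1 in either direction), and 0 of 11933 genes (0%) were called over the whole table. At an unadjusted p under 0.05 there were 6 of the 10 genes, against 24.7% of all genes tested. Of these, 2 of the 10 were higher, against 12.7% of all genes, and 4 were lower, against 11.9%. The family was chosen with earlier results of these data known, so such counts are descriptions only. DESeq2 called 6 of the 10 on the same libraries, of which Mmp14 and Timp1 were higher and Mmp12, Mmp19, Timp2 and Timp3 lower in αGlu. Its calls over the whole table were 4.21% of genes higher and 3.92% lower, and limma-voom made 0 calls, with 3101 genes below an unadjusted p of 0.05. Without αGlu 1, edgeR called these same 6 genes and Mmp9, where 8.05% of all genes were called higher and 10.5% lower.

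The family split into 3 patterns. Mmp12, Mmp19, Timp2 and Timp3 had all αGlu values below all Ctr values, which held for 15.9% of all genes tested. Mmp14 and Timp1 were at Ctr levels in αGlu 1 and far above them in αGlu 2 and 3. Mmp8, Mmp13, Mmp27 and Mmp9 overlapped between the groups. 0 of the 10 genes had all αGlu values above all Ctr values, compared with 14.2% of all genes. Without αGlu 1, 8 of the 10 showed no overlap, in a setting where 65.9% of all genes did so.

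**Figure D1:**
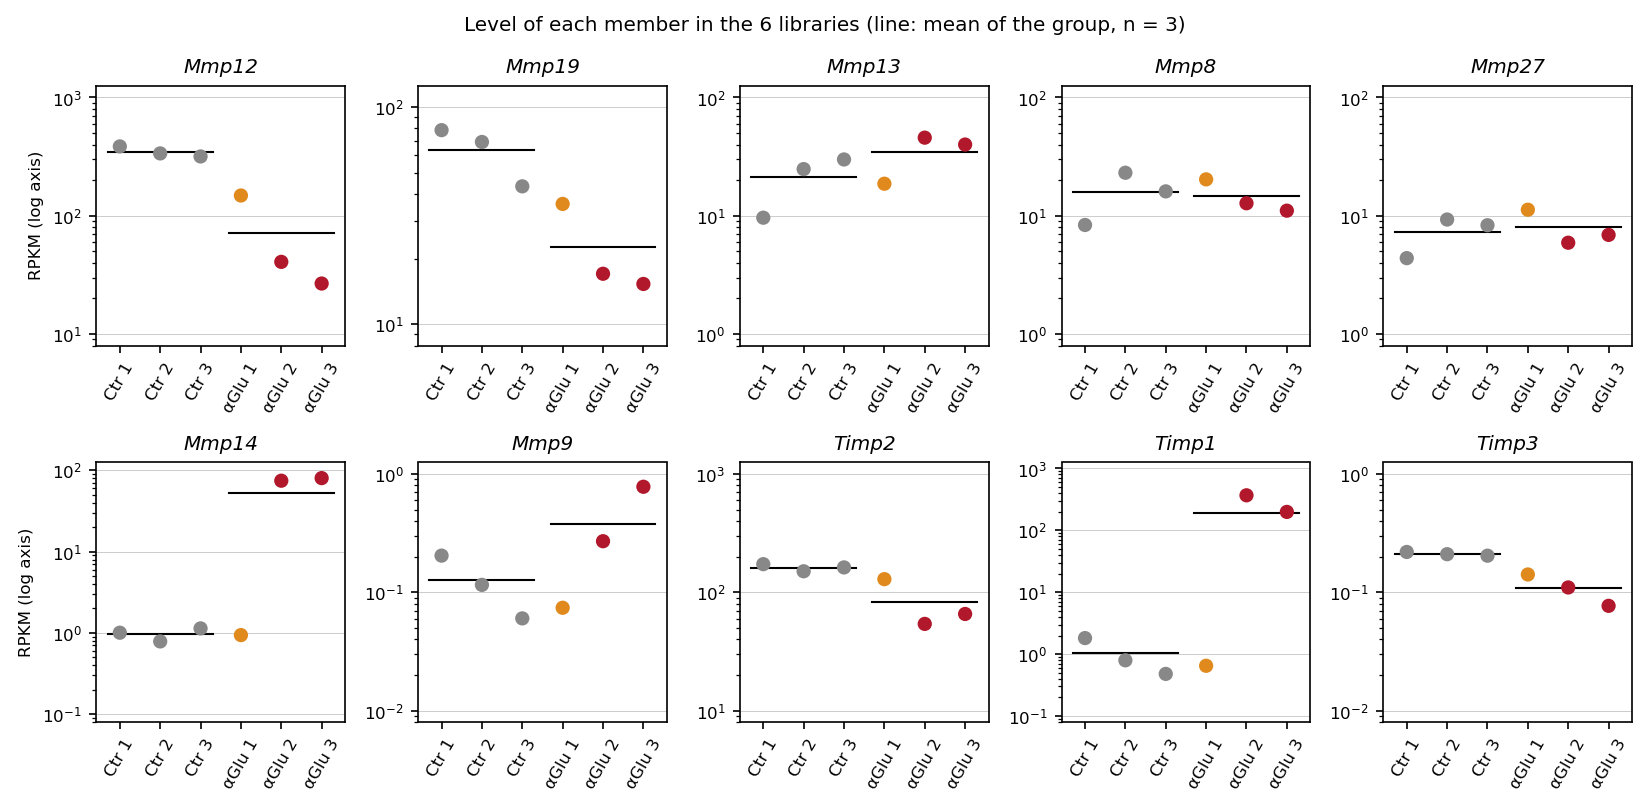
Deposited RPKM of the 10 genes in each library, on log axes that differ in range between panels; black lines are group means (n = 3), grey points Ctr, orange αGlu 1 and red αGlu 2 and 3. Mmp12, Mmp19, Timp2 and Timp3 show all αGlu points below all Ctr points, and Mmp14 and Timp1 show αGlu 1 beside Ctr with αGlu 2 and 3 far above.

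In control M2 Mφs most MMP transcripts came from Mmp12 and most TIMP transcripts from Timp2. On the scale of reads scaled by depth and exon length (RPKM), which allows levels of different genes to be compared, Mmp12 was at 346 ± 35.3 and Timp2 at 162 ± 11.2 in Ctr (SD, n = 3). Mmp19 followed at 63.5 ± 18.2 RPKM, and these 3 levels did not overlap between genes in any Ctr library. Mmp13 (21.5 ± 10.6 RPKM) and Mmp8 (15.8 ± 7.37 RPKM) were within the spread of each other, and Mmp27 was at 7.33 ± 2.60 RPKM. Timp1 (1.03 ± 0.70 RPKM) and Mmp14 (0.975 ± 0.177 RPKM) were likewise within their spread, and Timp3 (0.211 ± 0.00769 RPKM) and Mmp9 (0.127 ± 0.0726 RPKM) were the least abundant. In αGlu 2 and 3 the order was different, with Timp1 first at 369 and 199 RPKM and Mmp14 second at 74.6 and 80.3 RPKM.

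Mmp12, encoding macrophage elastase, was the most abundant MMP in Ctr and the member with the lowest log2 fold change. It lies on chr9:7344381-7369499 of GRCm38 (+ strand, ENSMUSG00000049723). Its level was 2984, 2740.2 and 2503 CPM in Ctr 1, 2 and 3, and 1176, 301 and 193 CPM in αGlu 1, 2 and 3. All αGlu libraries were thus below the Ctr range, with αGlu 1 between the Ctr libraries and the other 2. Relative to the mean of Ctr, αGlu 1 was 2.33-fold lower and the mean of αGlu 2 and 3 was 11.1-fold lower. The log2 fold change was -2.30 ± 0.70 (SE) with an adjusted p of 0.160 in edgeR's quasi-likelihood test, and an adjusted p of 0.00640 in DESeq2. Without αGlu 1 it was -3.48 ± 0.23 with an adjusted p of 0.000136. In Ctr 0.243% to 0.296% of all exon reads came from Mmp12, against 0.115% in αGlu 1 and 0.0315% and 0.0206% in αGlu 2 and 3.

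Mmp19, a secreted protease able to cleave basement membrane components, followed the same direction. It had 296, 275 and 166 CPM in Ctr 1, 2 and 3, against 139, 61.7 and 54.1 CPM in αGlu 1, 2 and 3. The groups did not overlap, but αGlu 1 was close to Ctr 3. The log2 fold change was -1.53 ± 0.43 (SE, edgeR adjusted p 0.158, DESeq2 adjusted p 0.00891), and -2.09 ± 0.26 without αGlu 1 (adjusted p 0.00152). Mmp19 shares exon positions on the opposite strand with Tmem198b, which had 166 to 389 reads against 1475 to 6571 for Mmp19.

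Timp2, which inhibits MMPs and also takes part with MMP14 in activating pro-MMP2, was the main inhibitor transcript of Ctr. Its level was 720.0, 659 and 689 CPM in Ctr 1, 2 and 3, and 551, 215 and 255 CPM in αGlu 1, 2 and 3. For Timp2 this gave a log2 fold change of -1.02 ± 0.37 (SE, edgeR adjusted p 0.180, DESeq2 adjusted p 0.0601), at the edge of the fold limit. Without αGlu 1 it was -1.56 ± 0.11 (adjusted p 0.000196). Timp3, the inhibitor that binds to the matrix and also blocks ADAM proteases, was scarce, with 39 to 46 reads in Ctr and 22, 29 and 17 in αGlu 1, 2 and 3. Its CPM was 1.91, 1.92 and 1.81 in Ctr and 1.26, 0.913 and 0.624 in αGlu, without overlap. The log2 fold change of Timp3 was -1.02 ± 0.30 (SE, edgeR adjusted p 0.160, DESeq2 adjusted p 0.0539), and -1.28 ± 0.30 without αGlu 1 (adjusted p 0.0162). The groups of Timp2 and of Timp3 did not overlap, and αGlu 1 was the nearest to Ctr for either gene.

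Mmp14 encodes a membrane-anchored collagenase, MT1-MMP, that acts at the cell surface and activates other MMPs. It had 141, 126 and 159 reads in Ctr 1, 2 and 3 and 107 in αGlu 1, but 14420 and 13015 in αGlu 2 and 3. These correspond to 6.41, 5.27 and 7.38 CPM in Ctr and to 6.14, 454 and 477 CPM in αGlu. αGlu 1 therefore lay inside the Ctr range, whereas the mean of αGlu 2 and 3 was 73.3-fold above the mean of Ctr. The log2 fold change was 5.62 ± 1.47 (SE, edgeR adjusted p 0.156, DESeq2 adjusted p 0.00117), and 6.19 ± 0.16 without αGlu 1 (adjusted p 7.38e-06). Limma-voom gave 3.80 ± 2.32 at an adjusted p of 0.317.

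Timp1, a secreted inhibitor of most soluble MMPs and a weak inhibitor of MMP14, showed the same arrangement of libraries. Its reads were 38, 19 and 10 in Ctr 1, 2 and 3, 11 in αGlu 1, and 10620 and 4799 in αGlu 2 and 3. In CPM it was at 1.73, 0.794 and 0.464 in Ctr and at 0.631, 334 and 176 in αGlu. Thus αGlu 1 was again inside the Ctr range, and the mean of αGlu 2 and 3 was 256-fold above that of Ctr. The log2 fold change was 7.41 ± 2.00 (SE, edgeR adjusted p 0.157, DESeq2 adjusted p 0.000553), and 7.99 ± 0.48 without αGlu 1 (adjusted p 9.51e-05). Limma-voom gave 5.47 ± 6.43 at an adjusted p of 0.588. Timp1 lies on chrX:20870166-20874735, inside Syn1 but with no shared exon position and on the opposite strand, and Syn1 had 246 to 612 reads in the 6 libraries.

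**Figure D2:**
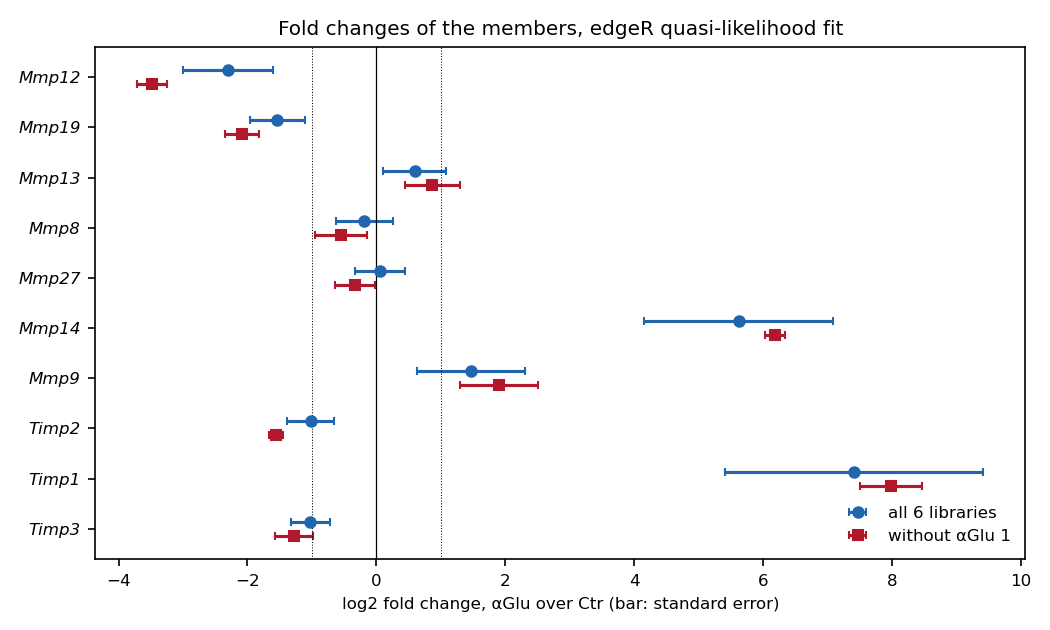
Log2 fold change of αGlu over Ctr with its standard error for the 10 genes, from edgeR's quasi-likelihood fit of all 6 libraries (circles) and without αGlu 1 (squares); dotted lines mark a log2 fold change of -1 and 1. Errors of Mmp14 and Timp1 are 1.47 and 2.00 with all libraries and 0.16 and 0.48 without αGlu 1, and Mmp8 and Mmp27 lie between -0.55 and 0.05 on either fit.

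Marker genes of other states moved with these patterns. The summed level of 8 LPS/IFN-γ response genes (Il1b, Tnf, Cxcl10, Ccl5, Cd86, Il12b, Ptgs2, Saa3) was 22.6 to 47.6 CPM in Ctr, 322 CPM in αGlu 1 and 15078 and 13949 CPM in αGlu 2 and 3, so it was high in the libraries with high Mmp14 and Timp1. Most of that sum in αGlu 2 and 3 came from Saa3, with 429208 and 338708 reads against 103 to 124 in Ctr. Of 7 osteoclast and giant cell genes, Calcr was at 0 in all libraries and Oscar had at most 4 reads. The list summed to 2639 to 2761 CPM in Ctr, mostly from Atp6v0d2, to 2485 CPM in αGlu 1 and to 964 and 732 CPM in αGlu 2 and 3, in the direction of Mmp12. Within it the fusion genes Ocstamp and Dcstamp had 842 to 1872 reads in Ctr, 91 and 149 in αGlu 1 and at most 7 in αGlu 2 and 3. Acp5 and Ctsk, of the same list, overlapped between the groups. Acp5 had 35.3 to 62.1 CPM in Ctr and 26.7, 66.0 and 37.7 CPM in αGlu 1, 2 and 3. Ctsk had 93.9, 184 and 113 CPM in Ctr 1, 2 and 3 and 61.0, 94.2 and 48.9 CPM in αGlu 1, 2 and 3. The log2 fold change of Ctsk was -0.94 ± 0.34 (SE, edgeR adjusted p 0.180, DESeq2 adjusted p 0.0693). Fibroblast markers summed to 2.38 to 11.7 CPM in Ctr and 3.08 to 4.53 CPM in αGlu. The part of these states or cells in the MMP and TIMP levels was not tested.

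The collagenases Mmp13 and Mmp8 cleave fibrillar collagen. Mmp13 had 27.5, 74.6 and 87.2 CPM in Ctr 1, 2 and 3, against 54.7, 125 and 107 CPM in αGlu 1, 2 and 3. αGlu 2 and 3 were above all Ctr libraries and αGlu 1 within them, and the log2 fold change was 0.60 ± 0.49 (SE, edgeR adjusted p 0.452) or 0.87 ± 0.43 without αGlu 1 (adjusted p 0.155). Without Ctr 1, the lowest library, the log2 fold change of Mmp13 was 0.25. Mmp8, also known as neutrophil collagenase, had 21.7, 63.0 and 42.5 CPM in Ctr 1, 2 and 3, against 54.0, 31.6 and 26.7 CPM in αGlu 1, 2 and 3. Its αGlu values all lay within the Ctr range, at a log2 fold change of -0.18 ± 0.44 (SE, edgeR adjusted p 0.802) that turned to 0.22 without Ctr 2 and to 0.0119 without αGlu 3, and was -0.55 ± 0.40 without αGlu 1 (adjusted p 0.320). The neutrophil markers Ly6g and Retnlg were at 0 in all 6 libraries. The sum of all 11 neutrophil markers was 108 to 160 CPM in Ctr and 187, 539 and 609 CPM in αGlu 1, 2 and 3, nearly all from Csf3r. Other neutrophil genes were scarce and did not share a direction. In αGlu 2 and 3, S100a9, Ngp, Ltf and Mpo had 0 to 3 reads, against 3 to 62 in Ctr, and S100a8 had 67 and 36 against 11 to 20. The part of neutrophils in the Mmp8 level was not tested.

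Mmp27, a little-studied member located beside Mmp8, had 10.4, 23.1 and 20.04 CPM in Ctr 1, 2 and 3 and 27.2, 13.3 and 15.2 CPM in αGlu 1, 2 and 3. Its values overlapped, at a log2 fold change of 0.05 ± 0.39 (SE, edgeR adjusted p 0.937). The sign turned to -0.33 ± 0.32 without αGlu 1 (adjusted p 0.443), to -0.21 without Ctr 1 and to -0.00407 in limma-voom. Mmp9, a gelatinase that cleaves denatured collagen and type IV collagen, was close to the detection limit with 17, 11 and 5 reads in Ctr 1, 2 and 3 and 5, 31 and 75 in αGlu 1, 2 and 3. The counts of αGlu 2 and 3 were above all Ctr counts, and αGlu 1 equalled the lowest. Its log2 fold change was 1.47 ± 0.84 (SE, edgeR adjusted p 0.304), 1.91 ± 0.61 without αGlu 1 (adjusted p 0.0490) and 0.43 without αGlu 3 (adjusted p 0.796).

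Genome position played no part in the choice of the genes. Mmp13, Mmp12, Mmp8 and Mmp27 belong to a cluster of 10 MMP genes on chr9:7272514-7699585 (GRCm38), 427 kb long. Mmp12 was lower in every αGlu library, while its neighbour Mmp13, on the same strand, was within the Ctr range in αGlu 1 and above it in αGlu 2 and 3, and Mmp8 and Mmp27 overlapped with Ctr. Of the other 6 genes of the cluster, Mmp1a, Mmp1b, Mmp20 and Mmp7 had 0 reads in all libraries, Mmp10 had 20 reads in total and Mmp3 had 113. Mmp12 shares exon positions with Mmp1b on the opposite strand, and Timp3 with Syn3, which had 0 to 2 reads. Mmp14 (chr14:54431612-54445364, + strand), Mmp19 (chr10:128790910-128800824, + strand), Timp2 (chr11:118301069-118355740, - strand), Timp3 (chr10:86300372-86349506, + strand) and Mmp9 (chr2:164940780-164955850, + strand) lie apart.

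Promoters are shown so that those of the members with a like pattern, Mmp14 and Timp1, can be set beside Mmp12, which was lower in αGlu, and Mmp13, its neighbour that overlapped between groups. The sequences are from RefSeq (GRCm38.p6), where 8 of the 10 genes had a window, and cover the 250 bases before the annotated start, 5′ to 3′ on the strand of the gene. Capitals mark matches, searched on both strands, to the AP-1 motif TGANTCA and the TATA motif TATAAA.
Mmp14, chr14:54431348-54431597, + strand: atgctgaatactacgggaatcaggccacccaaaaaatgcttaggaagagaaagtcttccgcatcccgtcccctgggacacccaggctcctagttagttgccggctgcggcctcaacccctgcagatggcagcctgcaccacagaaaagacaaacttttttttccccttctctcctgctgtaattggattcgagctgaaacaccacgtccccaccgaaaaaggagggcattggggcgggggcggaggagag
Timp1, chrX:20869916-20870165, + strand: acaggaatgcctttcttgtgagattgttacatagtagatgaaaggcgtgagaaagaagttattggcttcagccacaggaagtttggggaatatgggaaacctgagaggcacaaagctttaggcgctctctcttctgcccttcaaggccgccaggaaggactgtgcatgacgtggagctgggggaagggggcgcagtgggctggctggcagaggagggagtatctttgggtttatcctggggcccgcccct
Mmp12, chr9:7344147-7344396, + strand: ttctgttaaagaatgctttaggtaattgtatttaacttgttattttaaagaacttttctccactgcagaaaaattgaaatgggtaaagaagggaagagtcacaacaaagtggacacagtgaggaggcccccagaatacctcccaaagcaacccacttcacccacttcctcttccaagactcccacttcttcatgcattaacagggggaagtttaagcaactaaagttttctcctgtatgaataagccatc
Mmp13, chr9:7272264-7272513, + strand: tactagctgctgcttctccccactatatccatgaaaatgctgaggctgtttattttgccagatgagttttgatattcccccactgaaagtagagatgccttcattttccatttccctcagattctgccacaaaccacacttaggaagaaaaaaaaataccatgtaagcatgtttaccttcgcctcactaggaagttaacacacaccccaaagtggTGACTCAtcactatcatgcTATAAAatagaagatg
The Mmp13 window held both motifs, AP-1 at -35 and TATA at -16 from the start. Over all 32851 windows in the table, the AP-1 letters occurred in 6.75% and TATA in 12.4%. A further AP-1 match lay before a second annotated start of Mmp12, and the other 7 of the 9 windows of the family, those of Mmp14 and Timp1 included, held neither motif. A match or its absence in such a window says nothing of which factor acts on the gene, and the start sites used in these cells were not measured.

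The summed levels of proteases and inhibitors were described per library, without a test, in the deposited TPM, a length-scaled share of transcripts. The 7 MMPs summed to 1605, 1555 and 1356 TPM in Ctr 1, 2 and 3 and to 800.2, 645 and 594 TPM in αGlu 1, 2 and 3. The 3 TIMPs summed to 576, 508 and 531 TPM in Ctr and to 441, 1383 and 867 TPM in αGlu. Proteases were thus lower in all αGlu libraries, whereas inhibitors were lower in αGlu 1 and higher in αGlu 2 and 3. The ratio of the sums was 2.79, 3.06 and 2.55 in Ctr (mean 2.80 ± 0.25, SD, n = 3) and 1.81, 0.466 and 0.685 in αGlu (mean 0.988 ± 0.723), lower in each αGlu library than in each Ctr library. Transcript sums say nothing of the amount or activity of the proteins.

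The make-up of the sums differed between libraries as well. Mmp12 made up 72.6% to 79.1% of MMP transcripts in Ctr, 63.0% in αGlu 1 and 20.7% and 14.8% in αGlu 2 and 3. Mmp14 took 0.169% to 0.273% in Ctr, 0.399% in αGlu 1 and 37.8% and 44.3% in αGlu 2 and 3, so the most abundant MMP transcript of these 2 libraries was Mmp14 and not Mmp12. Among TIMPs, Timp2 made up 98.8% to 99.6% in Ctr and 99.4% in αGlu 1, but 12.8% and 24.8% in αGlu 2 and 3, where Timp1 took 87.2% and 75.2%.

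**Figure D3:**
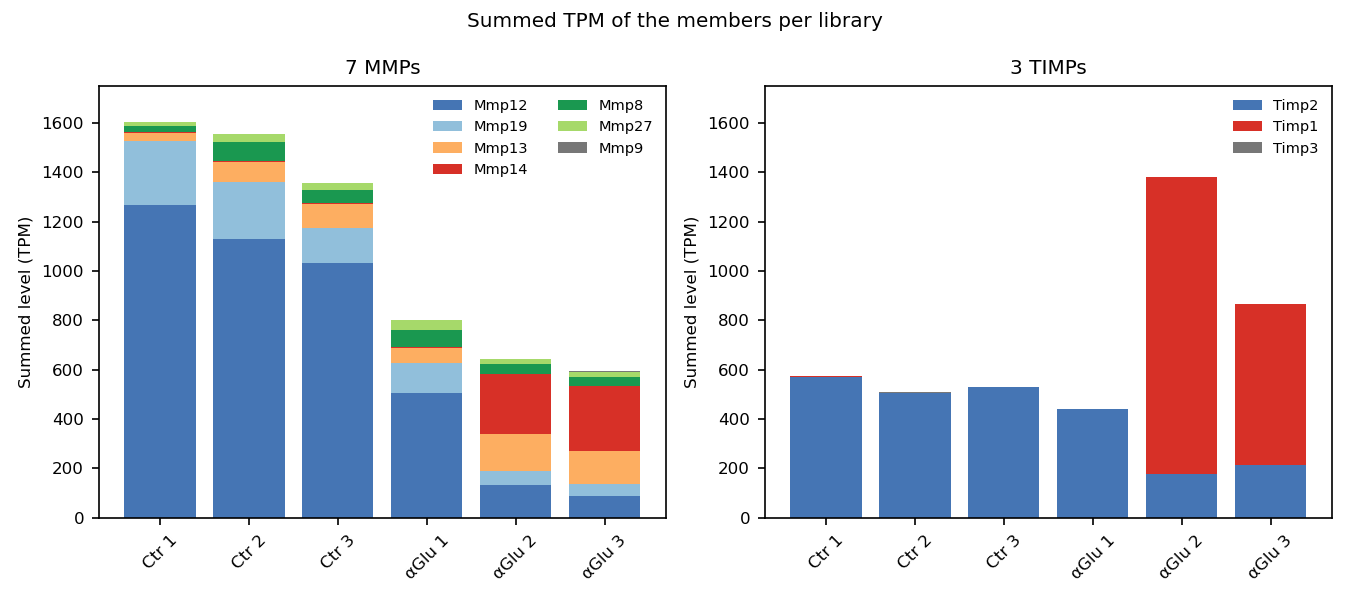
Summed TPM of the 7 MMPs (left) and the 3 TIMPs (right) in each library, with bars stacked by gene from 0. MMP bars reach 1356 to 1605 TPM in Ctr and 594 to 800.2 TPM in αGlu, with Mmp12 the largest piece in Ctr and αGlu 1 and Mmp14 in αGlu 2 and 3, and TIMP bars consist mostly of Timp1 in αGlu 2 and 3 and of Timp2 in the others.

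Genes with patterns most like the leading protease and inhibitor were sought over the 6 libraries among 11326 protein-coding genes. The closest to Mmp12 were Ephx1, Itgb2 and Pkmyt1, with a Pearson r of 0.9994, 0.9991 and 0.9990 between log2 CPM values. The closest to Timp2 were P2ry1, Ablim1 and Blvra, with an r of 0.9996, 0.9988 and 0.9988. Of the 11326 genes, 901 had an r above 0.95 with Mmp12 and 1006 with Timp2. How many reached the r of the genes named was not counted. The 6 points share 2 groups and the split among αGlu libraries. Between members, Mmp14 and Timp1 correlated at an r of 0.985, Mmp12 and Timp3 at 0.987 and Mmp12 and Mmp19 at 0.970.

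Other genes of matrix proteolysis were taken from 5 lists, and edgeR called 0 genes of any list with all 6 libraries. The lists were chosen with earlier results of these data known, so their counts beside the shares of all genes are descriptions only. Of the remaining MMP family, 16 MMPs and Timp4, 0 of the 17 passed the low-count filter. The filter asks for enough reads in at least 3 libraries, so a gene high in αGlu 2 and 3 alone does not pass. The more abundant were Mmp25, a membrane-anchored MMP of leukocytes, and Mmp3, stromelysin. Mmp25 had 2 to 5 reads in Ctr, 4 in αGlu 1 and 151 and 217 in αGlu 2 and 3, an arrangement like that of Mmp14 (DESeq2 log2 fold change 4.73, adjusted p 0.00105). Mmp3 had 7, 36 and 54 reads in Ctr and 0, 10 and 6 in αGlu, with a DESeq2 log2 fold change of -2.96 (adjusted p 0.0543). Without αGlu 1, 4 of the 17 were tested, and edgeR called Mmp25 and Mmp11 higher and Mmp3 lower. In that fit 8.05% of all genes were called higher and 10.5% lower. Mmp11 was chosen for mention after its values were seen.

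Plasmin and furin-like proteases remove the propeptide of MMPs. Of 15 such genes and their regulators 9 were tested, with a median log2 fold change of -0.46. Without overlap between groups, 5 of the 9 were lower and 2 higher, where 15.9% and 14.2% of all genes were. At an unadjusted p under 0.05 there were 5 lower and 1 higher, where all genes gave 11.9% and 12.7%. Anxa2 and S100a10, the subunits of a plasminogen receptor, were the most abundant in RPKM and had the smallest p. The Ctr level of Anxa2 was 997 ± 70.3 CPM (SD, n = 3), and αGlu 1, 2 and 3 had 622, 362 and 330.3 CPM, so that all αGlu values lay below Ctr. The log2 fold change of Anxa2 was -1.19 ± 0.27 (SE, edgeR adjusted p 0.156, DESeq2 adjusted p 0.00141), and that of S100a10 was -0.46 ± 0.07 (edgeR adjusted p 0.149). DESeq2 called Anxa2 and Plaur, the urokinase receptor, lower and Serpinb2, an inhibitor of plasminogen activators, higher. Serpinb2 had 2 to 4 reads in Ctr and αGlu 1 and 1244 and 793 in αGlu 2 and 3, and it and Plaur were chosen for mention after their values were seen. Without αGlu 1, edgeR called 4 of the 10 genes tested from this list lower and 2 higher, beside 10.5% and 8.05% of all genes.

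Among genes that restrain, induce or take up MMPs, 4 of 10 were tested, with a median log2 fold change of 0.16. At an unadjusted p under 0.05, 2 were higher and 0 lower, where all genes gave 12.7% and 11.9%. Lrp1, the endocytic receptor for MMP and TIMP complexes, averaged 1762 ± 526 CPM over Ctr and 1065 ± 559 CPM over αGlu libraries (SD, n = 3), with overlap (log2 fold change -0.73 ± 0.43, SE, edgeR adjusted p 0.315). Thbs1, a matrix glycoprotein that binds MMPs, again had the arrangement of Mmp14, with 216 to 273 reads in Ctr, 182 in αGlu 1 and 15216 and 10919 in αGlu 2 and 3. The fit gave Thbs1 a log2 fold change of 4.73 ± 1.28 (SE, edgeR adjusted p 0.157, DESeq2 adjusted p 0.00337) and 5.29 ± 0.14 without αGlu 1. Bsg, the MMP inducer also named EMMPRIN, was higher in every αGlu library by a log2 fold change of only 0.37 ± 0.13 (edgeR adjusted p 0.181).

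ADAM and ADAMTS proteases, relatives of the MMPs that shed membrane proteins or cut proteoglycans, gave 7 tested of 14, with a median log2 fold change of -0.23. At an unadjusted p under 0.05 there was 1 gene in each direction, where 12.7% of all genes were higher and 11.9% lower. The abundant Adam8 averaged 1223 ± 196 CPM over Ctr and 1470.3 ± 257 CPM over αGlu libraries, with overlap (log2 fold change 0.27 ± 0.21, SE, edgeR adjusted p 0.424). Adam9 averaged 249 ± 12.3 CPM over Ctr libraries, and αGlu 1, 2 and 3 had 289, 425 and 474 CPM, higher without overlap (log2 fold change 0.67 ± 0.20, adjusted p 0.160). DESeq2 called 0 of these genes. Without αGlu 1, edgeR called Adam19 and Adamts1 lower, 2 of 7 tested, beside 10.5% of all genes called lower in that fit. Adamts1, at 20 to 77 reads in Ctr and 5 to 17 in αGlu, had with all libraries a log2 fold change of -2.14 ± 0.87 (edgeR adjusted p 0.200).

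Matrix proteins that MMPs cleave were the list with the lowest median, at a log2 fold change of -1.85 over 11 tested of 17 genes, compared with 0.02 over all genes tested. At an unadjusted p under 0.05 there were 3 of the 11 lower and 1 higher, beside 11.9% and 12.7% of all genes. The gene at the median, Hspg2 (perlecan), had only 4 to 47 reads and is named because it holds that place. Fn1, fibronectin, had 122, 40.2 and 29.2 CPM in Ctr 1, 2 and 3, against 12.2, 4.12 and 4.47 CPM in αGlu 1, 2 and 3, lower without overlap (log2 fold change -3.23 ± 0.73, SE, edgeR adjusted p 0.156, DESeq2 adjusted p 9.14e-05). Nid1, a basement membrane linker, had 18 to 68 reads in Ctr and 2, 1 and 1 in αGlu (log2 fold change -4.86 ± 0.81, edgeR adjusted p 0.149). The most abundant, Spp1 (osteopontin) and Lamc1 (a laminin chain), had log2 fold changes of -0.70 ± 0.37 and 0.56 ± 0.32 with overlap. DESeq2 called Fn1, Nid1, Sparc and Col4a1 lower and Vcan higher, and without αGlu 1, a fit that tested 14 of the 17, edgeR called 10 genes lower and 1 higher, beside 10.5% and 8.05% of all genes in that fit. Ctr 1 was the highest library for Fn1, Nid1 and Sparc and also for the summed fibroblast markers, at 11.7 CPM against at most 4.53 CPM in the others, and the part of such cells was not tested.

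**Figure D4:**
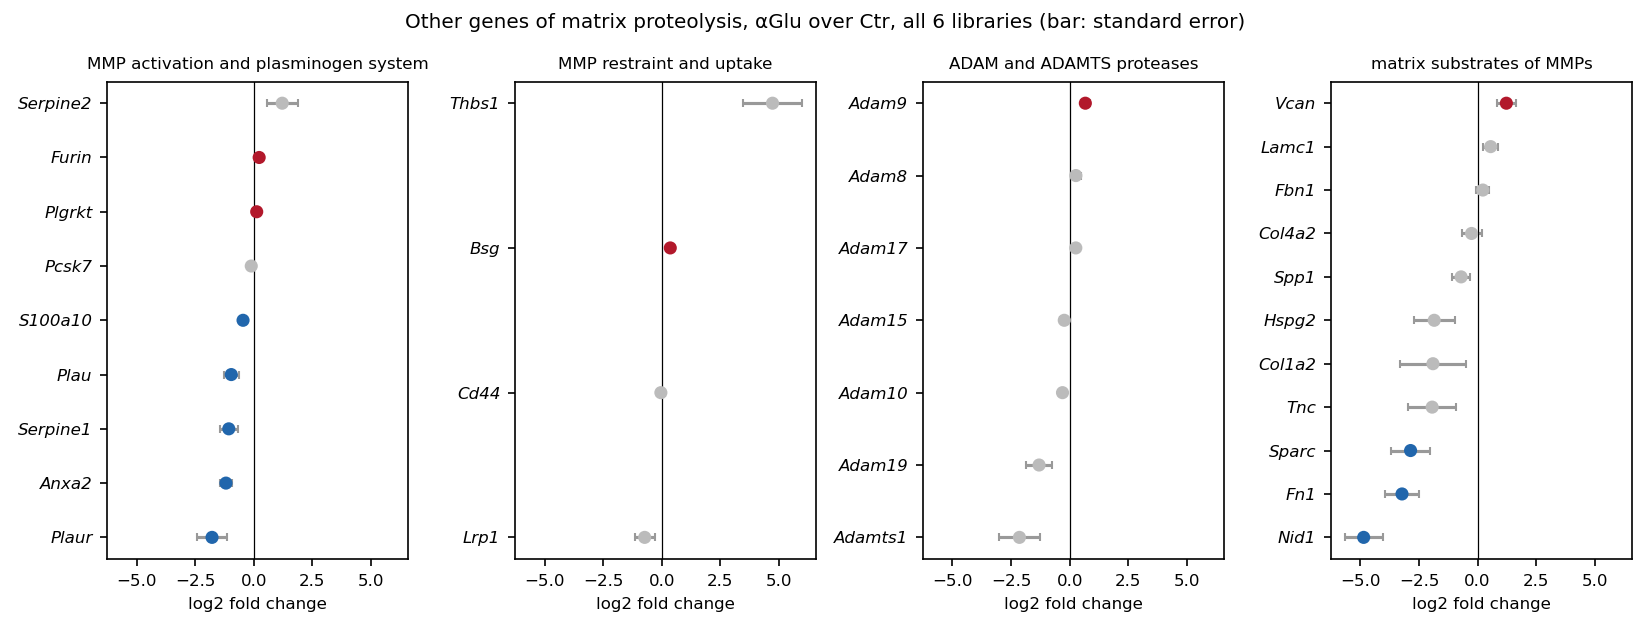
Log2 fold change of αGlu over Ctr with its standard error for the tested genes of 4 lists, from all 6 libraries; red and blue points are genes higher or lower in every αGlu than in every Ctr library, and grey points overlap. Thbs1 has the highest value at 4.73 and Nid1 the lowest at -4.86, and in the ADAM and ADAMTS list Adamts1 is the lowest at -2.14 and Adam9 the highest at 0.67.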

How the data were processed

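The deposited table gives, for 41549 genes and 6 libraries (3 Ctr, 3 αGlu, named by library in the labels), whole-number counts of exon reads without normalization, which the authors produced in a QIAGEN portal for RNA-seq. The labels name the build GRCm38, while the aligner and annotation release are not given in the sources used here. The authors also deposited RPKM and TPM values, used here for levels, and a CPM column, a signal in which counts are scaled by effective library sizes; this column was not used.

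Counts were filtered with filterByExpr (minimum count 10, total 15), scaled with TMM factors and tested, two-sided with Benjamini-Hochberg adjustment over 11933 genes, by the quasi-likelihood test of edgeR 4.0.16 in R 4.3.3, with group as the only term. The SE was derived from the F statistic. CPM values given are counts over the TMM-scaled library size, and log2 CPM used a prior count of 2. DESeq2 1.42.0, limma-voom (limma 3.58.1), other scalings and filters, the replicate number and leaving out each library were alternatives. Positions are from GENCODE M21 and promoters from RefSeq; whether reads were counted by strand is not given. P-values measure the spread between 3 independent experiments per group. In fits without αGlu 1 they rest on 2 αGlu and 3 Ctr experiments. That library was set aside after these data showed it apart, so those p-values do not measure the spread of all αGlu experiments.

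The family, the 5 gene lists and the marker lists were chosen with earlier results of these data known. Named are all 10 members, the 2 most abundant genes and the 2 tested genes with the smallest p of each list, and the 3 genes most like the most abundant MMP and TIMP. Genes named outside this rule are said to be so, or complete a small count. No set test was run. The summed level of the Mφ marker list is not reported here.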

Additional observations from a re-analysis of the deposited data

How the results depend on the processing

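The number of calls depended on the test and on αGlu 1. DESeq2 called 1117 genes, 6 of the 10 members, 2 of the other MMPs and Timp4, 3 of the activation list, 1 of the restraint list and 5 of the matrix substrates. Leaving out 1 library at a time with edgeR gave 0 to 2290 genes, 0 to 7 members, and 0 to 3, 0 to 6, 0 to 2, 0 to 2 and 0 to 11 genes of the other MMPs, activation, restraint, ADAM and substrate lists, and each upper value was reached without αGlu 1. Members without overlap numbered 4 to 8 in the same way. Limma-voom, upper-quartile or RLE scaling, library size without factors, both other filters, an adjusted p under 0.05 and no fold limit gave 0 calls. The cause was not tested. Library size alone moved the median log2 fold change of all genes from 0.02 to 0.10 and turned no member.

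Mmp8 and Mmp27 had no stable sign. Mmp8 ranged from -0.55 to 0.22 with 1 library left out, and Mmp27 from -0.33 to 0.28, with -0.00407 in limma-voom. The other 8 members kept their direction in the alternatives that tested them, which for Mmp9 leaves out the filter of CPM above 1 in 3 libraries. The ratio of MMP to TIMP sums is the same in RPKM and TPM by construction.

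Whether libraries of equal number are pairs is not given. After subtraction of group means, libraries 1, 2 and 3 of Ctr and αGlu correlated at an r of 0.0764, 0.0646 and 0.154. Every library correlated best with its own number, but these r values were low. The paper compared the level of the fragment between αGlu and Ctr Mφs by a paired t test. The main fit here had no term for pairs. A block for the replicate number gave 17 calls by edgeR, with 0 members and 1 gene of the substrate list among them. Depth limits Mmp9, Timp3 and the low list genes, with 5 to 75 reads for Mmp9.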
